A study of Homo sapiens with 18 samples.

Results

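RNA sequencing libraries of Cal51, a human breast cancer cell line, were examined for 50 genes of the endoplasmic reticulum: the genes of protein translocation, folding and degradation, and of the vesicles that carry cargo to and from the organelle. The members were chosen by name, and a member was counted as measured when its symbol stood in any of 3 deposited tables, which together list 3647 genes. Of the 50 members 25 were listed and 25 were not. Cal51 cells, for which these groups' labels name no genetic change, were treated for 8 h with DMSO (the solvent control), with fenofibrate (a fibrate drug given against high blood lipids, an agonist of PPARα), with ezetimibe (which blocks sterol uptake through NPC1L1), or with fenofibrate plus ezetimibe, here called the combination. Each of these 4 groups held 3 libraries, and no dose is given in the labels. The labels name no separate cultures, so the p-values measure only the spread between libraries, which may be technical. The PKM2 knockout libraries and their controls (6 libraries) are not analysed here.

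Proteins meant for secretion or for membranes enter the endoplasmic reticulum through the Sec61 channel, where a signal peptidase cuts off their signal peptide. Chaperones and disulfide isomerases fold them, and chains that fail to fold are drawn back to the cytosol and degraded, a route that passes through the mannosidase-like EDEM proteins and the derlins. Folded cargo leaves in vesicles coated by COPII, and escaped resident proteins are returned in vesicles coated by COPI with the help of KDEL receptors. The capacity of this system is raised by the unfolded protein response, in which the sensors ATF6, IRE1 and PERK switch on chaperone, degradation and vesicle genes.

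Promoter sequences of listed and unlisted members were searched for 4 elements of these stress responses. The windows come from RefSeq (GRCh38.p14), hold 250 bases before and 50 after each annotated start, and covered 43 of the 50 members, 22 of them listed. The endoplasmic reticulum stress element (ERSE), the site known for ATF6 with its partner NF-Y, was searched as CCAAT followed after 9 bases by CCACG on both strands. It stood in 5 of the 43 members (11.6%) and in 0.0916% of all 27305 genes with a window. The sites follow because 2 of them lie in the promoter of HSP90B1, the most abundant listed member, and because they were found in listed and unlisted members alike; each is read in the direction of the element, with CCAAT and CCACG in capitals.
HSP90B1 (distal site): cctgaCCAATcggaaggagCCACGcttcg
HSP90B1 (proximal site): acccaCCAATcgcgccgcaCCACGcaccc
CRELD2: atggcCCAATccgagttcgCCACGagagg
PDIA6: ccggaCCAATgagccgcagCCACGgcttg
CANX: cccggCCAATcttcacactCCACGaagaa
CALR: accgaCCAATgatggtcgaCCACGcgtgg

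The HSP90B1 sites lie at chr12:103930211-103930239 (plus strand) and chr12:103930316-103930344 (minus strand), the CRELD2 site at chr22:49918549-49918577 (minus strand), the PDIA6 site at chr2:10812848-10812876 (minus strand), the CANX site at chr5:179698773-179698801 (plus strand) and the CALR site at chr19:12938379-12938407 (minus strand). HSP90B1 and CRELD2 were listed, and PDIA6, CANX and CALR were not. The HSP90B1 sites and the CANX site, as printed, overlap annotated exons, and those of CRELD2, PDIA6 and CALR do not. The core of the unfolded protein response element (UPRE), TGACGTGG, is a site known for ATF6 and XBP1. It stood on either strand in 10 of the 43 members (23.3%) against 0.927% of all genes with a window, and again in listed members (4 of 22) and unlisted members (6 of 21). The 4 sites of listed members are shown in the direction of the element, with its core in capitals.
SSR3: cttgcTGACGTGGctgtt
KDELR3: ggcggTGACGTGGccagg
COPA: gtcgcTGACGTGGaggcg
SEC16A: ccggcTGACGTGGcacca

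These windows lie at chr3:156554154-156554171 (plus strand), chr22:38468045-38468062 (minus strand), chr1:160343233-160343250 (minus strand) and chr9:136484713-136484730 (plus strand). The COPA and SEC16A cores lie after the annotated start, and the printed stretches of KDELR3, COPA and SEC16A overlap annotated exons. The unlisted members with the UPRE core were DNAJC10, COPB2, SEC62, SEC24A, SEC23A and SSR4. A second endoplasmic reticulum stress element (ATTGG followed after 1 base by CCACG) and the amino acid response element TGATGNAAT, a site known for ATF4, were found in 0 of the 43 members, against 0.0696% and 1.22% of all genes with a window. The searches are not independent, since both stress elements share CCACG and the UPRE core holds CCACG on its other strand. The members were chosen by name as genes of this system, with earlier results of these data known. Their shares beside those of all genes are therefore a description and were not tested. The ERSE or the UPRE core stood in 6 of 22 listed and 9 of 21 unlisted members. A match describes letters in these windows and not binding.

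In all tables the controls are the same 3 DMSO libraries, so the comparisons share them, and each table holds only genes that the authors called: every gene in it is past 1 on the log2 scale in either direction, and its adjusted p is below 0.05. Values are normalised read counts, that is, reads divided by a factor per library. Summed over listed genes, a library had 40113 to 108822 reads (fenofibrate), 185127 to 339263 (ezetimibe) or 2550718 to 3265200 (combination), and its total depth is unknown. An unlisted gene may have missed either criterion. Of 20 markers of epithelial, luminal, mesenchymal, immune, endothelial and fibroblast cells 5 were listed in any table, and the levels of the other 15 are not known, so the identity of the cells could not be checked from them. With the combination, the epithelial keratin KRT7 had 49.3, 32.4 and 34.5 normalised reads against 4.88, 5.51 and 1.07 in DMSO, and the luminal factor GATA3 had 92.1, 112 and 107 against 15.6, 34 and 25.6. The fibroblast markers COL1A1 (275, 265 and 245 against 973.8, 1198 and 892) and PDGFRB (412, 345 and 387 against 1131, 1101 and 1045) were listed as lower with the combination. With ezetimibe GATA3 was listed as higher and the endothelial marker CDH5 as lower (log2 1.08 and -1.42 in the authors' deposited table). These markers moved in the same libraries as the members, and their part in the members' changes was not tested.

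Combination replicate 1 stood apart from the other combination libraries in a way that followed gene length. Among the 2303 genes of the combination table with a mean of at least 50, the log2 difference between combination replicate 1 and the mean of replicates 2 and 3 had a Spearman correlation of -0.432 with gene length. The same measure was 0.391 for replicate 2 and 0.273 for replicate 3, and between -0.134 and 0.139 in the DMSO libraries. Genes are not independent replicates, and these values are a description. Of the 25 listed members 6 were below 0.9 times that mean in replicate 1 (GFPT1, DNAJC3, SEC24D, SEC16A, SEC63 and CLGN, with a median length 8726.5 bases) and 8 were above 1.1 times it (CREB3L4, SEC61G, SEC61A1, CRELD2, DERL2, EDEM2, DERL1 and COPG1, with a median length 4561 bases). The part of this in the changes below was not tested. Without combination replicate 1 all 25 members were still called, beside 2047 genes called higher and 1446 lower of all 3508 fitted. The authors had called all of these genes on the same libraries, so this count does not bear on the difference by gene length. Over the 25 members the change with the combination had a Spearman correlation of -0.24 with gene length.

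**Figure D1:**
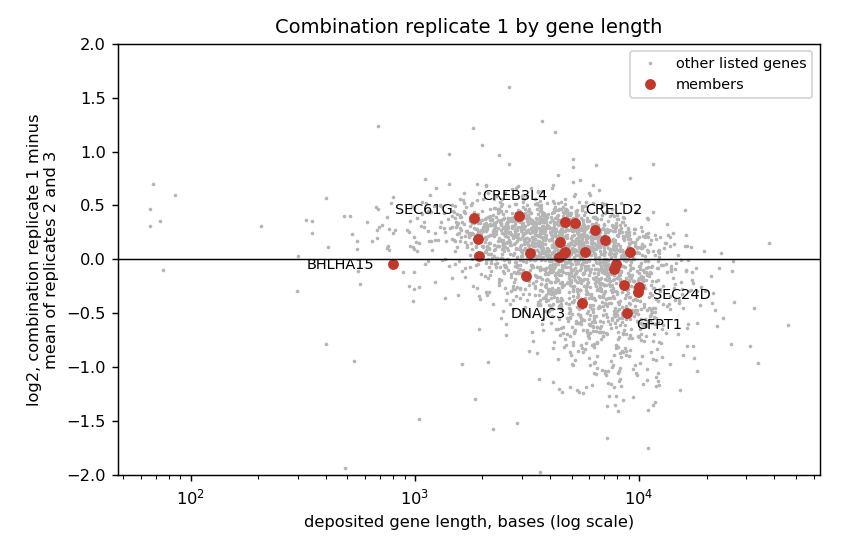
Log2 difference between combination replicate 1 and the mean of replicates 2 and 3 (vertical axis) against the deposited gene length in bases (horizontal axis, log scale) for 2303 genes with a mean of at least 50, with the listed members in red. Long members such as GFPT1 and SEC24D lie below 0 and short members such as SEC61G and CREB3L4 above 0. Not all members follow this: BHLHA15 (798 bases) lies at -0.041 and SEC31A (9145 bases) at 0.064. Over the 24 members plotted the Spearman correlation was -0.461.

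With the combination, genes of every step of the route were higher, and no member was listed as lower. The authors' deposited table listed 25 of the 50 members (50%), all higher, where it lists 10.3% of all genes tested as higher and 7.27% as lower (19944 genes tested, estimated from p and adjusted p). Ezetimibe alone had 5 of 50 members listed, all higher, against 2.7% of all genes tested (13596). Fenofibrate alone had 0 of 50 listed, against 0.761% of all genes tested (12215, a weak estimate from 17 p-values). Set against the 19951 protein-coding genes of GENCODE 29 instead, which does not rest on the inferred numbers, the shares listed as higher were 7.46% with the combination, 1.55% with ezetimibe and 0.436% with fenofibrate. By step, the combination table listed 4 of 13 genes of translocation and signal peptide cleavage, 6 of 11 of folding, 4 of 7 of degradation, 4 of 7 of COPII, 1 of 4 of retrieval and cargo receptors, 2 of 4 of COPI and all 4 regulators and sugar supply genes. The members had been named with earlier results of these data known, and the number of members per step is small. In RNA from bulk cultures, more RNA per cell and more cells in a given state cannot be told apart.

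**Figure D2:**
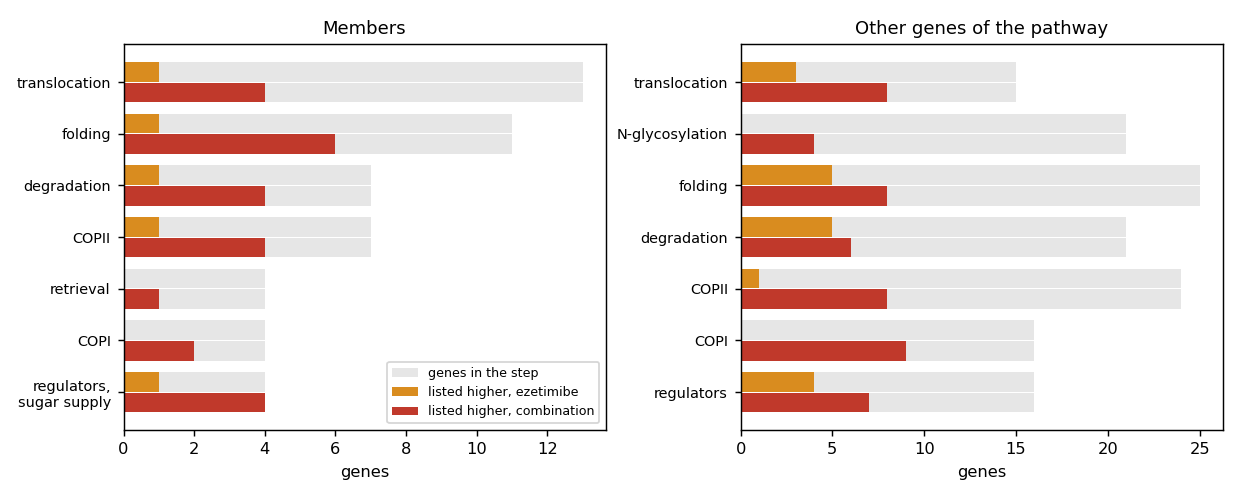
Number of genes per step (grey), and of these the genes listed as higher with ezetimibe (orange) or with the combination (red), for the members on the left and for the other genes of the pathway on the right. The red bar is the longer in every step. Genes of COPI, retrieval and N-glycosylation appear with the combination and not with ezetimibe. Of all genes tested, 10.3% were listed as higher with the combination and 2.7% with ezetimibe.

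Limma, fitted to all 3508 genes of the combination table, called the 25 listed members higher (58.7% of the table's genes were called higher), with adjusted p from 2.17e-08 to 3.41e-05. In each of the 25 no combination library overlapped a DMSO library, as in 99% of the genes of the table. Because the authors had selected these genes on the same libraries, these p-values are a description and add no separate support to the listing. The ratio of mean values ran from 2.03-fold (SEC61G) to 90.5-fold (BHLHA15), with a median of 2.71-fold, and 10 of the 25 were above 3-fold. The median log2 change of the members was 1.43, against 1.77 for all 2058 genes listed as higher. In DMSO 21 of the 25 members had a mean of at least 100, against 706 of those 2058 genes. Among genes with a DMSO mean of at least 100 the medians were 1.34 for 21 members and 1.35 for 706 genes listed as higher. Across the 25 members the log2 change had a Spearman correlation of -0.449 with the DMSO level, which enters both quantities.

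**Figure D3:**
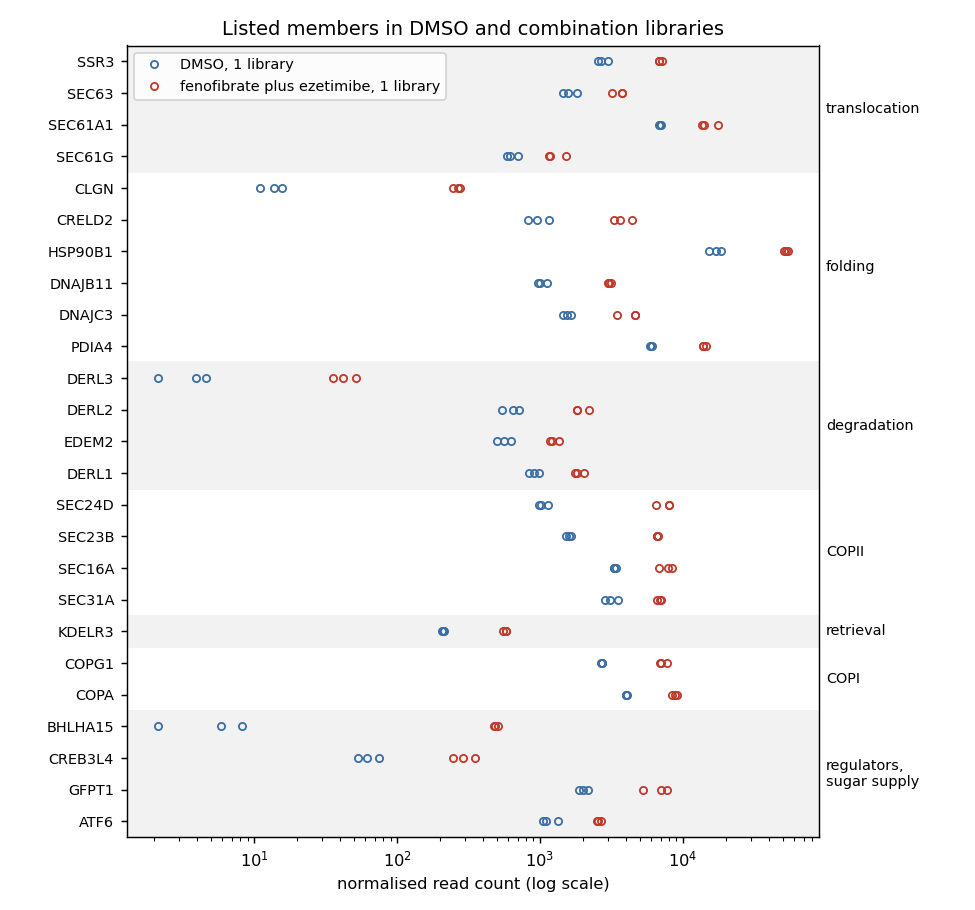
Normalised read count (log scale) of each listed member in the 3 DMSO libraries (blue) and the 3 combination libraries (red), 1 circle per library, grouped by step. In no member do red and blue circles overlap, and BHLHA15, CLGN, DERL3 and CREB3L4 start below 100 in DMSO.

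Of the translocation genes, the channel itself was listed in part. SEC61A1, the pore-forming subunit (chromosome 3, 128051641 to 128071683), had 17642, 13634 and 14141 normalised reads in combination replicates 1 to 3, against 6809, 7065 and 6938 in DMSO. Every combination library lay above every DMSO library, and the DMSO libraries were close to each other (2.18-fold, log2 1.12 ± 0.12 SE). SEC61G, a small subunit of the channel, had 1526, 1152 and 1181 against 587, 699 and 613, with combination replicate 1 the highest (log2 1.01 ± 0.13, the smallest change among the listed members, just past the listing threshold). SEC61B, the remaining subunit, was not listed. SEC63, which brings the luminal chaperone BiP to the channel, had 3182, 3756 and 3738 against 1558, 1455 and 1816, with combination replicate 1 the lowest (2.21-fold), and its partner SEC62 was not listed.

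SSR3, the gamma subunit of the translocon-associated protein complex TRAP, had the largest change of the 4 listed translocation members. It had 7084, 6790.1 and 6847 normalised reads with the combination against 2685, 2551 and 2980.1 in DMSO, a tight group well above the controls (2.52-fold, log2 1.34 ± 0.10). The other TRAP subunits SSR1, SSR2 and SSR4 were not listed, nor were TRAM1, a membrane protein beside the channel, or the signal peptidase subunits SPCS1, SPCS2 and SPCS3. Per kilobase of gene length, the DMSO level of SEC61A1 was 1477 normalised reads, against 592 for SSR3, 343.5 for SEC61G and 187 for SEC63. These levels rest on the deposited gene lengths, and the genes were not tested against each other.

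Of the folding genes, HSP90B1, the HSP90 chaperone of the endoplasmic reticulum known as GRP94 (chromosome 12, 103930107 to 103953645), was the most abundant listed member. It had 53889, 52298 and 50698 normalised reads with the combination against 16908, 15141 and 18345 in DMSO (3.11-fold, log2 1.64 ± 0.11). PDIA4, a disulfide isomerase, came next with 14430.4, 13755 and 13886 against 6032, 5951 and 5866. Both groups of PDIA4 were narrow and far apart (2.36-fold, log2 1.24 ± 0.09). The isomerases PDIA3 and PDIA6, the lectin chaperones CALR and CANX, which hold glycoproteins, and DNAJC10, a reductase with a J domain, were not listed.

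CRELD2, a stress-induced secreted protein of the endoplasmic reticulum, had the largest fold of the listed folding members with a DMSO mean above 100. It had 4367, 3317 and 3610.2 normalised reads with the combination against 952, 1157 and 830.4 in DMSO, a wider spread than that of PDIA4 in both groups (3.84-fold, log2 1.94 ± 0.14). The J-domain co-chaperones of BiP followed. DNAJB11 had 3153, 3026 and 3000.2 against 1123, 1001 and 964 (2.97-fold, log2 1.57 ± 0.10). DNAJC3, also known as an inhibitor of PERK, had 3462, 4589 and 4585 against 1542, 1449.6 and 1650.2, with combination replicate 1 at 0.755 times the mean of the others (2.72-fold).

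CLGN, calmegin, a lectin chaperone known from the testis, rose from a very low level. With the combination it had 244, 276 and 267 normalised reads against 15.6, 11 and 13.9 in DMSO, where it stood on 41 reads in all (19.4-fold, log2 4.19 ± 0.22, or 3.54 with a pseudocount of 10). The combination libraries lay close together and far above all DMSO libraries. Its relatives CALR and CANX, which are known to be expressed in most cells, were not listed.

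Among the degradation genes the 3 derlins, membrane proteins that form the exit channel to the cytosol, were all listed but by very different amounts. DERL1 had 2035, 1764 and 1829 normalised reads with the combination against 909, 833 and 985 in DMSO (2.06-fold, log2 1.05 ± 0.11). DERL2 had 2194, 1806 and 1828 against 648, 545 and 712 (3.06-fold, log2 1.61 ± 0.13). In DMSO the mean levels per kilobase were 128 for DERL1 and 99.4 for DERL2, and with the combination 265 and 304. The lengths behind these levels count all annotated exon bases and not the expressed transcript. The levels of DERL1 and DERL2 were not tested against each other.

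DERL3, the derlin known from secretory tissues, was near the limit of detection in DMSO. It had 3.91, 4.59 and 2.13 normalised reads in DMSO, 11 reads in all, and 41.6, 51.9 and 35.4 with the combination (12.1-fold, log2 3.30 ± 0.36). Its groups did not overlap, but its log2 change was 1.96 with a pseudocount of 10. Of its exon bases 77% lie opposite exons of SMARCB1, and no source used here says whether the counting used strand, so its reads may be shared. EDEM2, which trims mannose from glycoproteins bound for degradation, had 1356, 1173 and 1208 against 561, 622 and 501 (2.22-fold, log2 1.15 ± 0.12). EDEM1, EDEM3 and the lectin OS9 were not listed.

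The COPII genes held the largest changes among abundant members. SEC24D, a cargo-binding subunit of the coat (chromosome 4, 118722823 to 118838683), had 6514, 8015 and 8019.9 normalised reads with the combination against 1018, 989 and 1135 in DMSO. Even combination replicate 1, the lowest, was far above DMSO (7.18-fold, log2 2.84 ± 0.11, the lowest adjusted p among the members). SEC23B, the GTPase-activating subunit that pairs with SEC24 (chromosome 20, 18507482 to 18561415), had 6729.7, 6611 and 6614 against 1659.5, 1517 and 1602, which gave the narrowest relative spread of the listed members with the combination (4.18-fold, log2 2.06 ± 0.09). Their paralogues SEC24A and SEC23A were not listed.

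The other COPII genes changed less. SEC16A, the scaffold of the sites where the coat forms, had 6783, 8337 and 7919 normalised reads with the combination against 3284, 3401 and 3294 in DMSO, with replicate 1 the lowest (2.31-fold). SEC31A, of the outer coat, had 7072, 6933 and 6602 against 3089, 2851.5 and 3519 (2.18-fold, log2 1.13 ± 0.10). SAR1A, a GTPase that starts coat assembly, was not listed.

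For the return route, KDELR3 was the listed receptor for proteins that end in the KDEL signal, such as HSP90B1. Its values were 578, 553 and 576 with the combination against 207, 211 and 212 in DMSO, very close within each group (2.71-fold, log2 1.43 ± 0.11). The receptors KDELR1 and KDELR2 and the cargo receptor SURF4 were not listed. Of the COPI coat, COPG1 (gamma subunit) had 7731, 6857 and 6999 against 2735, 2704 and 2663 (2.66-fold, log2 1.41 ± 0.09), and COPA (alpha subunit) had 8418, 9061 and 8865.5 against 3980.3, 4013 and 4049 (2.19-fold, log2 1.13 ± 0.09). The subunits COPB2 and ARCN1 were not listed.

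The regulators and the sugar supply gene were listed in full. BHLHA15, also called MIST1, a transcription factor of secretory cells (chromosome 7, 98211427 to 98212979), had 481, 479.98 and 510.4 normalised reads with the combination against 5.86, 8.26 and 2.13 in DMSO. The combination libraries lay within a narrow band, while the DMSO level rested on 17 reads in all (90.5-fold, log2 6.39 ± 0.36, rank 25 of the 2058 genes listed as higher by the authors' deposited table). With a pseudocount of 10 its log2 change was 5.04. CREB3L4, a membrane-bound transcription factor related to ATF6, had 353, 288 and 247 against 61.5, 53.2 and 74.7 (4.69-fold, log2 2.21 ± 0.20). ATF6, the stress sensor itself, had 2525, 2687 and 2523 against 1099.8, 1056 and 1326 (2.22-fold, log2 1.16 ± 0.11).

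GFPT1, the first enzyme of the hexosamine pathway that feeds N-glycosylation, had the widest spread for its level with the combination among members with a DMSO mean above 100. It had 5213, 7716 and 6993 normalised reads with the combination, with replicate 1 the lowest, against 2009, 1865.5 and 2165 in DMSO (3.30-fold, log2 1.70 ± 0.14). Without combination replicate 1 its log2 change was 1.87.

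**Figure D4:**
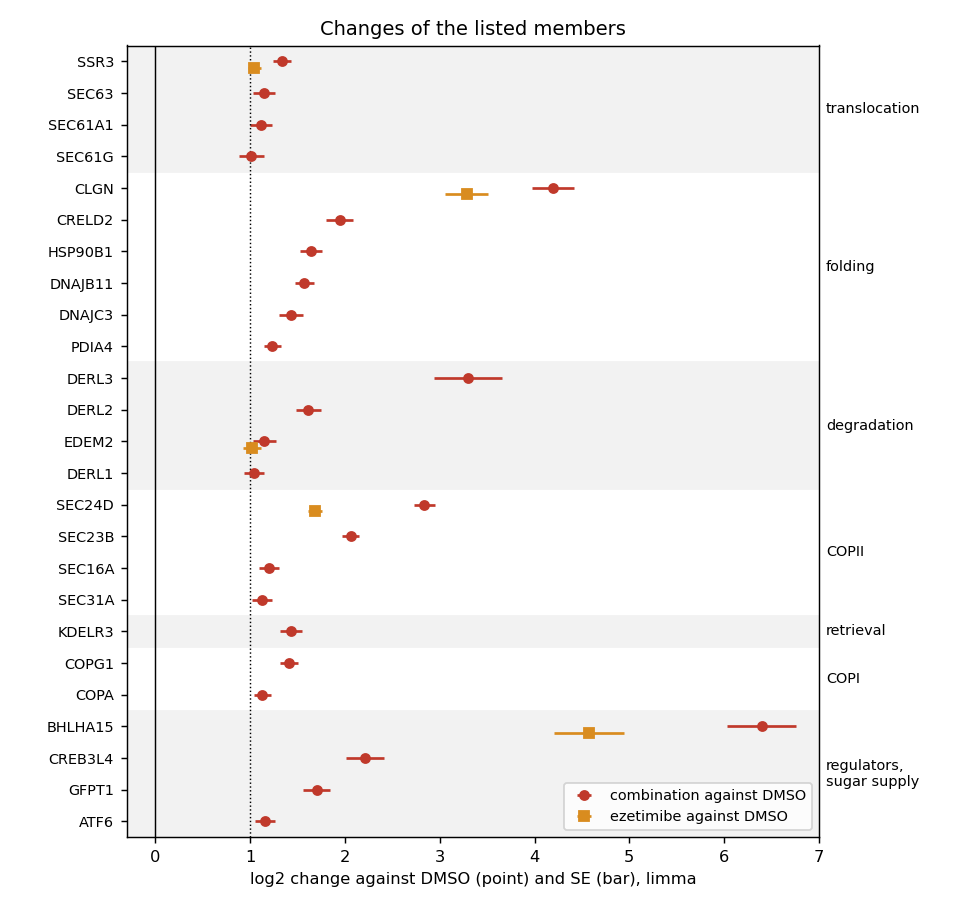
Log2 change against DMSO (points) with its SE (bars) from limma for the 25 members listed with the combination (red circles) and the 5 listed with ezetimibe (orange squares), grouped by step; the dotted line marks the listing threshold of 1. Most members lie between 1 and 2, and BHLHA15, CLGN, DERL3 and SEC24D lie farthest to the right.

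With ezetimibe alone 5 members were listed, a gene each of translocation, folding, degradation and COPII, and the regulator BHLHA15. Limma, fitted to the 472 genes of that table, called all 5 higher (77.5% of its genes were called higher), with adjusted p from 1.34e-09 to 7.45e-07, and in each no ezetimibe library overlapped a DMSO library, as in 98.3% of the table. BHLHA15 had 140.2, 156 and 122 normalised reads against 5.88, 8.29 and 2.14 (25.6-fold, log2 4.58 ± 0.37), and CLGN had 137, 124 and 159.6 against 15.7, 11.1 and 13.9 (10.4-fold, log2 3.28 ± 0.22). These low-level genes changed most of the 5, and with a pseudocount of 10 their log2 changes were 3.29 and 2.67. SEC24D had 3287, 3382 and 3425 against 1021, 992 and 1136, with all ezetimibe libraries close together (3.21-fold, log2 1.68 ± 0.07). SSR3, with 5841, 5364 and 5794 against 2693, 2559.7 and 2984 (log2 1.05 ± 0.07), and EDEM2, with 1171, 1097 and 1151 against 562, 624 and 501 (log2 1.02 ± 0.10), were just past the listing threshold.

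The same 5 members were also listed with the combination, so the treatments could be set against each other directly. The combination was put on the scale of the ezetimibe table through the shared DMSO libraries (a factor of 1.00), and limma compared the treated groups over the 359 genes in both tables. The combination was higher than ezetimibe in 4 of the 5 members, where 53.2% of the 359 genes were called higher and 10% lower. BHLHA15 was 3.53-fold higher (492 ± 17.3 against 139 ± 17.1, SD, n = 3; log2 1.82 ± 0.31, limma adjusted p = 0.000195) and SEC24D 2.24-fold higher (7535 ± 870.4 against 3365 ± 70.4; log2 1.16 ± 0.10, limma adjusted p = 3.88e-07).

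CLGN was 1.88-fold higher with the combination than with ezetimibe (263 ± 16.4 against 140.2 ± 18.1; log2 0.91 ± 0.19, limma adjusted p = 0.000798), and SSR3 1.22-fold higher (6924 ± 156 against 5667 ± 263; log2 0.29 ± 0.08, limma adjusted p = 0.00609). EDEM2 did not pass the test, with 1249 ± 97.3 against 1139.9 ± 38.6, a log2 difference of 0.13 and a 95% interval from -0.11 to 0.37 (limma adjusted p = 0.321). The groups did not overlap in any of the 5, EDEM2 included, nor in 71% of the 359 genes. The interval does not cover the error of the common scale. No member was listed with fenofibrate, so no member could be tested for additivity of the drugs, and for the other 20 members the size of any change with ezetimibe is not known.

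**Figure D5:**
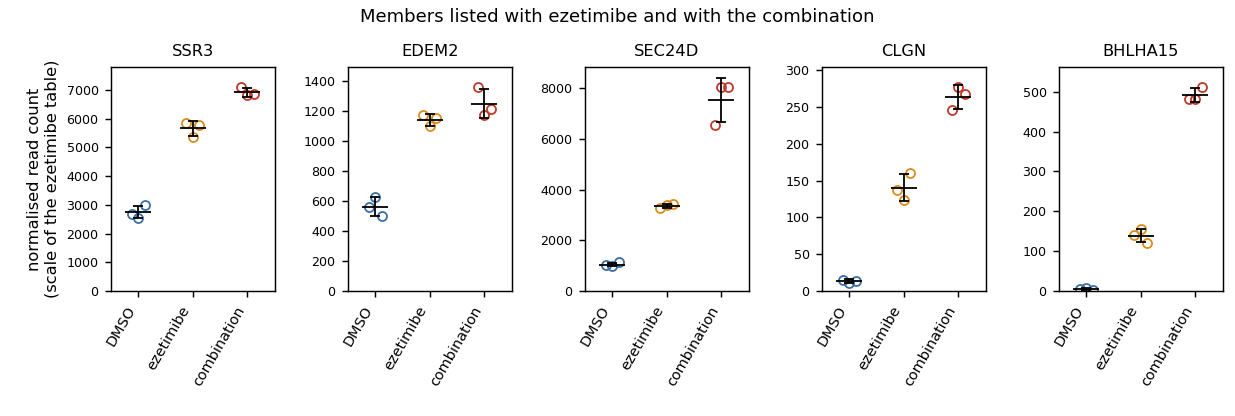
Normalised read count, on the scale of the ezetimibe table, of the 5 members listed with both treatments in the DMSO, ezetimibe and combination libraries; circles are libraries, and bars give the mean and SD of 3 libraries. All vertical axes start at 0. In EDEM2 the ezetimibe and combination groups lie close together, while in BHLHA15 and SEC24D the combination is more than 2-fold above ezetimibe.

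The other genes of the pathway were taken from a list of 138 drawn up from general knowledge, with earlier results of these data known. The shares below are therefore a description. The authors' deposited tables listed 50 of them higher and 1 lower with the combination, 18 higher and 0 lower with ezetimibe, and 3 higher and 0 lower with fenofibrate (UAP1L1, SEL1L3 and DDIT3). The shares listed as higher were 36.2%, 13% and 2.17%, beside 10.3%, 2.7% and 0.761% of all genes tested, and most of the 138 were not listed, so that their direction is not known. The 1 lower gene was FKBP7, a peptidyl-prolyl isomerase (56.7 ± 10.3 against 142 ± 45.6, log2 -1.28, limma adjusted p = 0.000701).

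Step by step, these genes filled in parts of the route that the members left out. Of 15 genes grouped under translocation 8 were listed as higher with the combination. Among them were HSPA5, the chaperone BiP (7.83-fold), its partner HYOU1 (5.97-fold) and the signal peptidase subunit SEC11C (4.06-fold). The list places HSPA5 and HYOU1 in this step, while the chaperones among the members were counted under folding. With ezetimibe the same 3 genes were listed, HYOU1 (3.10-fold), HSPA5 (2.76-fold) and SEC11C (2.42-fold). Of 21 genes of N-glycosylation 4 were listed, UAP1 (3.15-fold) and PGM3 (2.85-fold), which follow GFPT1 in the hexosamine pathway, ALG2 (2.64-fold) and KRTCAP2, while the catalytic subunits STT3A and STT3B of the oligosaccharyltransferase were not listed.

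Of 25 further folding genes 8 were listed as higher with the combination, led by the BiP co-chaperone DNAJB9 (13.7-fold), SDF2L1 (4.62-fold) and the oxidase ERO1B (4.32-fold). Of 21 further genes grouped under degradation 6 were higher, led by the ubiquitin ligase SYVN1 (6.33-fold), HERPUD1 (5.46-fold) and SEL1L3 (4.31-fold). With ezetimibe 5 of the folding genes were listed, led by DNAJB9 (4.27-fold), and 5 of the degradation genes, led by SEL1L3 (3.17-fold). The place of SEL1L3 in the degradation step rests on the list alone and was not tested.

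Of 24 further COPII genes 8 were listed as higher with the combination (33.3%), led by MIA2, which helps to load large cargo (6.91-fold), and the vesicle fusion proteins BET1 (3.58-fold) and GOSR2 (3.27-fold). With ezetimibe 1 of the 24 was listed, MIA2 (2.41-fold). Of 16 further genes grouped under COPI, which are not all coat subunits, 9 were higher with the combination (56.2%). They were led by ARFGAP1 (3.25-fold), BET1L (2.85-fold) and GOLGA3 (2.69-fold). Of the further coat subunits COPE was listed, and COPB1, COPG2, COPZ1 and COPZ2 were not. None of the 16 genes was listed with ezetimibe, where 2.7% of all genes tested were listed as higher. Whether the treatments differ for these 16 genes was not tested. Of 16 further regulators 7 were higher with the combination, led by DDIT3 (14.4-fold), PPP1R15A (11.7-fold) and ERN1, the sensor IRE1 (10.6-fold). With ezetimibe 4 of these regulators were listed as higher (25%), led by DDIT3 (2.75-fold). DDIT3 was also listed as higher with fenofibrate (2.26-fold).

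Several of the listed members lie just inside the listing threshold. With the combination, 8 of 25 members had a log2 fold change under 1.2 in the authors' deposited table, and with ezetimibe 2 of 5 did. The values of unlisted members are not known, so a paralogue that is listed beside another that is not (SEC24D and SEC24A, SEC23B and SEC23A, KDELR3 and KDELR1) is not shown to differ from it, which was not tested.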

How the data were processed

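RNA of 12 libraries in 4 groups was examined. The values are read signal that the authors deposited as normalised read counts in 3 tables of called genes, beside their log2 fold changes, p-values and gene lengths. Per the submitters' processing notes, fastp, HISAT2 2.0.5, featureCounts 1.5.0-p3 and hg38 were used; no source used here names the tool of the authors' comparisons. Multiplying each column by a factor recovered from its low values gave whole reads (within 0.001). The number of genes tested was inferred from the ratio of p to adjusted p. The right number makes the rank of each p-value a whole number, which held for 58.8% of 17 p-values with fenofibrate. It held for 89% of 155 with ezetimibe and 89.7% of 979 with the combination.

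Each table was fitted with limma 3.58.1 (R 4.3.3) on log2(value + 1) with a mean trend, and p-values were adjusted by Benjamini-Hochberg over all genes of the table (threshold 0.05). Fold changes on this scale are understated for low genes; folds are ratios of mean values. Tables were normalised separately, so the combination was compared with ezetimibe after rescaling through the shared DMSO libraries. The recovered reads were also tested with edgeR 4.0.16 and DESeq2 1.42.0, with the authors' factors. With 3 libraries against 3 an exact two-sided permutation test cannot go below p = 0.1, so none is given for single genes. The scripts were tested on simulated data.

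The members and lists were chosen with earlier results of these data known. All listed members are named, and of the other genes up to 3 per step with the largest fold change in the authors' table. SEC20 was looked up as BNIP1, its symbol in the annotation. The cutoff of 100 for comparing median changes was set after seeing the values, to match the cutoff used for the members.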

Additional observations from a re-analysis of the deposited data

How the results depend on the processing

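With 0.5 or 10 in place of 1 as pseudocount, a filter at a mean of 50, limma without the trend, and each library left out in turn, the members called with limma numbered 0 with fenofibrate, 5 with ezetimibe, 24 to 25 with the combination and 4 for the combination against ezetimibe. The 24 came from the filter, which removed DERL3 from the fit. Leaving out a library gave 25 with the combination each time. The edgeR and DESeq2 tests on recovered reads gave the counts 0, 5, 25 and 4 in the same order. The fits held only genes that the authors had called on the same libraries. The counts against DMSO could therefore hardly change and add no separate support. No member was in the fenofibrate fits, so their 0 was fixed. With the combination 2058 of all 3508 genes were called higher in the main fit and 2056 with a pseudocount of 10. With ezetimibe 366 and 367 of all 472 genes were called higher, and for the combination against ezetimibe 191 and 201 of 359. With edgeR 2058, 367 and 202 genes were called higher (combination, ezetimibe, combination against ezetimibe). With DESeq2 the numbers were 2056, 367 and 196. Without the trend they were 2051, 365 and 191, and with the replicate number as a block 2058, 367 and 190. The filter gave 1128 of 2303, 216 of 296 and 174 of 273. Leaving out a library gave 2029 to 2050, 361 to 367 and 174 to 199. With a pseudocount of 10 the log2 change of BHLHA15 was 5.04 with the combination and 3.29 with ezetimibe, that of CLGN 3.54 and 2.67, and that of DERL3 1.96. Same-numbered treated and DMSO libraries had correlations of their deviations between -0.130 and 0.244, so the numbers were not taken to pair them; with the replicate number as a block 0, 5, 25 and 4 members were called. Depth limits BHLHA15, DERL3 and CLGN most, with 17, 11 and 41 reads in the DMSO libraries.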
